A study of Mus musculus with 9 samples.

Results

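The S100 and annexin genes described here are 10 calcium-binding genes of the mouse: S100a1, S100a4, S100a6, S100a10, S100a11 and S100b of the S100 family, and Anxa1, Anxa2, Anxa3 and Anxa5 of the annexin family. They were chosen by their levels in these same libraries, by name, from 14771 named genes, so that their differences from the astroglia are given as a description, and calls counted for them against AG restate that choice and support nothing. Each had 1 transcript in the table. Of the other S100 and annexin genes, 8 were in the table and are given further on.

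S100 proteins are small proteins, mostly dimers, that bind calcium through paired EF-hands and then expose a surface that grips target proteins. Annexins bind acidic phospholipids of membranes when calcium rises, and several of them carry an S100 dimer on their N-terminal tail, as Anxa2 carries S100a10 and Anxa1 carries S100a11. In brain, S100b is best known from astrocytes and other glia, while S100a4, S100a6, S100a10, S100a11 and the annexins are known from reactive, migrating and mesenchymal cells.

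RNA of 9 libraries was sequenced, 3 from each of 3 kinds of cell. OB libraries were made from tumour cells of the olfactory bulb and BS libraries from tumour cells of the brainstem, both from the 129;C57BL/6 mix background and labelled Foxr2 overexpression and p53 cko. AG libraries were made from astroglia of C57BL/6 background, brain cells labelled p53 DN and Nf1 shRNA, so that the genotype label of every group names p53. The labels used here do not name the promoter or Cre behind these alleles, the ages, or whether libraries of 1 group came from separate animals or cultures, so that p-values measure only the spread between these libraries, which may be technical. Strain, genotype and any culture differ together between the tumour cells and AG, and their parts in a difference cannot be told apart.

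The table held 11300273 to 13927771 reads per OB library, 12680832 to 15282668 per BS library and 14987773 to 19868282 per AG library. All levels below are the authors' normalized reads, which are reads divided by 1 size factor per library. The AG libraries were close to each other, with a median SD over all tested genes of 0.116 on the log2 scale, against 0.483 in OB and 0.466 in BS. Correlations across genes ran from 0.861 to 0.943 within OB, from 0.886 to 0.959 within BS and from 0.992 to 0.993 within AG, and OB_257 and BS_287 stood furthest from the other tumour libraries, with mean correlations to them of 0.855 and 0.882 against 0.916 to 0.923 for the other 4. Of the fixed astrocyte markers, AG held Gja1 at 4961.1 to 5395.7, Sox9 at 2328.2 to 2946.6 and Slc1a3 at 752.9 to 855.5 normalized reads. Gfap, Aqp4, Aldh1l1, Aldoc and Fgfr3 had at most 5.91 normalized reads in any AG library. The low values of Gfap and Aqp4 are uncertain, because the handling of shared reads is not given. The summed level of 9 astrocyte markers was 9207.7 to 47588.6 in OB, 22682.7 to 36270.4 in BS and 10644.0 to 10801.8 in AG, so that the label astroglia rests on part of the list.

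Promoters are shown for 4 members that stand for the patterns below: S100a6, S100a11 and Anxa2, which were high in AG, and S100b, which was high in OB. Each is a RefSeq promoter of 300 bases on GRCm38.p6, from 250 bases before to 50 bases after the transcription start, and 8 of the 10 members had one in the reference used. Capitals mark an AP-1 motif (TGACTCA, or its reverse complement) or a TATA box (TATAAA).
S100a6, chr3:90612644-90612943, + strand: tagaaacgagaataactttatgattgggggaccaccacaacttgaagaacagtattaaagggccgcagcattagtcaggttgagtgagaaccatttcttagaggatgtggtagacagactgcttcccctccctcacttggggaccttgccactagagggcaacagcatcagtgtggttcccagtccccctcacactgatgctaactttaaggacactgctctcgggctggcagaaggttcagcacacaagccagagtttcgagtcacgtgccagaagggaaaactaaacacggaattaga
S100a11, chr3:93520246-93520545, + strand: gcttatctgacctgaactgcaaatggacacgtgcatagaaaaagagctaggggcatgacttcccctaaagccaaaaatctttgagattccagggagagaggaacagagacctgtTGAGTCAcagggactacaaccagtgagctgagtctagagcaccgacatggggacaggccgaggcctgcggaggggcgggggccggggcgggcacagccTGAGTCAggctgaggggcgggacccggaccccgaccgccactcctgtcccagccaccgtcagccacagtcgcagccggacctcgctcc
Anxa2, chr9:69453433-69453732, + strand: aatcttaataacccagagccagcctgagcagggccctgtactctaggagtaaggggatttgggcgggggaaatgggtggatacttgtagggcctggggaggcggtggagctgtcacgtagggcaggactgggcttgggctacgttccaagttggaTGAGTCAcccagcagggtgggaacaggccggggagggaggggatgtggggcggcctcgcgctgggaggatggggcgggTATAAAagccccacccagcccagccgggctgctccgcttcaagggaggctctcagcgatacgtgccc
S100b, chr10:76253586-76253885, + strand: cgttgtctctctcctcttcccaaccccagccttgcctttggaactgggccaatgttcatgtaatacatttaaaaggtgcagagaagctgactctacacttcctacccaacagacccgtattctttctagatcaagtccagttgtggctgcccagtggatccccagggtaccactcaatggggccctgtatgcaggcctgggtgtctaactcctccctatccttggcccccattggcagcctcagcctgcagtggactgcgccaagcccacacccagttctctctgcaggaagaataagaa

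Motifs were searched on both strands of all 32851 promoters of this length. The AP-1 motif was in 5.2% of them and in 2 of the 8 member promoters, at -136 and -38 from the start of S100a11 and at -95 from that of Anxa2. A TATA box was in 13.6% of promoters and in 3 of the 8, at -31 in S100a4, -32 in Anxa1 and -17 in Anxa2. The GC box GGGCGG was in 35.7% of promoters and in 2 of the 8, with 3 copies each in S100a11 and Anxa2, left in lower case. The TEAD motif GGAATG was in 14.7% of promoters and the OLIG2 E-box CAGATG in 17.2%, and each was in 1 of the 8, Anxa1, at -236 and 10. The motifs do not overlap one another in these promoters, and none of the 5 was in the windows of S100a6 or S100b. These matches are letters in a window, and no binding was measured here.

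The 10 genes split into 3 patterns. Low in both tumour groups and high in AG were 7 of them: S100a4, S100a6, S100a11, Anxa1, Anxa2, Anxa3 and Anxa5. S100b had the opposite pattern in OB, and S100a1 and S100a10 varied mostly among the tumour libraries. Together the 10 genes took 0.0213% to 0.073% of the reads in OB, 0.00578% to 0.03% in BS and 1.14% to 1.21% in AG. Counting error was far smaller than these gaps: the exact (Clopper-Pearson) 95% interval was 0.0714% to 0.0746% in OB_257, the highest tumour library, and 1.13% to 1.14% in AG_2, the lowest AG library. In AG the 4 annexins took 0.62% to 0.644% of reads and the 6 S100 genes 0.515% to 0.564%, so that the annexins held the larger share in each AG library.

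**Figure D1:**
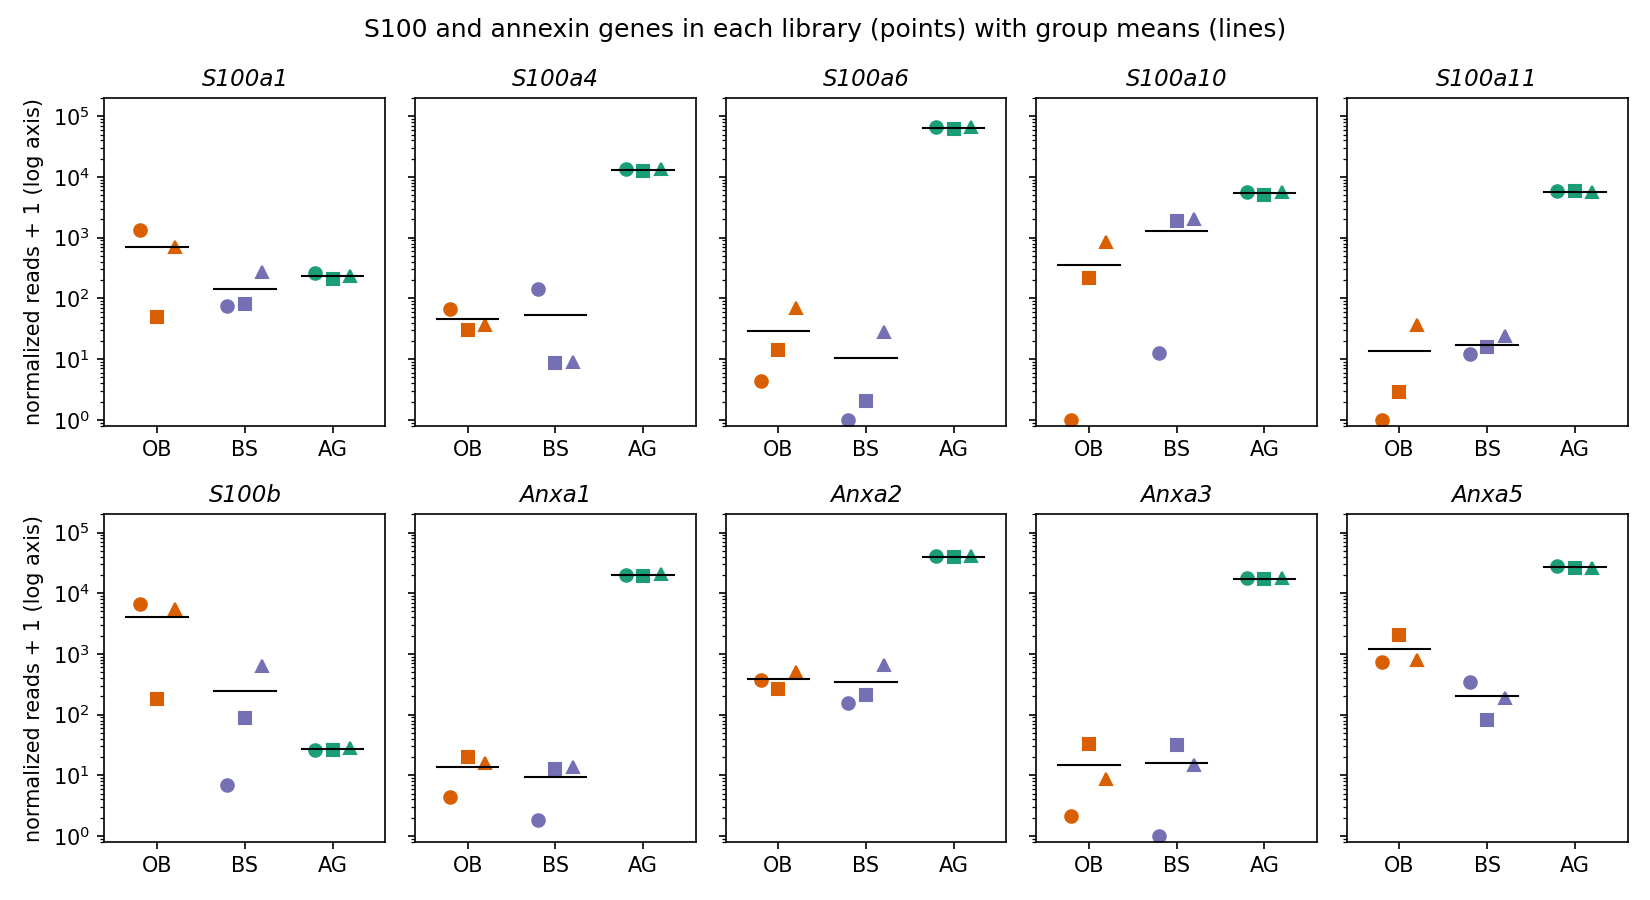
Normalized reads + 1 of the 10 genes on a log axis, with 1 point per library (OB orange, BS purple, AG green; the marker shapes are the libraries of a group in label order, and black lines are group means). Every OB and BS library lies below every AG library for 8 genes, while S100b is higher in every OB library than in AG and S100a1 overlaps.

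Among the S100 genes, S100a6 (calcyclin, a protein of proliferating and migrating cells that binds annexins) was the most abundant in AG. It had 3.32, 13.32 and 67.38 normalized reads in OB_257, OB_287 and OB_295, and 0.00, 1.07 and 26.60 in BS_287, BS_295 and BS_296. In AG it had 65947.1, 60555.2 and 67028.1. The mean was 28.0 ± 34.5 in OB, 9.22 ± 15.1 in BS and 64510 ± 3470 in AG (SD, n = 3 each), which is 2303-fold lower in OB and 6995-fold lower in BS as a ratio of means. All 6 tumour libraries lay below the AG libraries, and the fitted log2 differences were -11.96 ± 1.29 in OB and -14.03 ± 1.29 in BS (SE).

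S100a4 (metastasin, which binds non-muscle myosin and is a common mark of fibroblasts and moving cells) had 66.31, 29.50 and 35.86 normalized reads in the OB libraries and 139.2, 7.47 and 7.88 in the BS libraries. In AG it had 13365.7, 12344.0 and 13374.5. BS_287 was the highest tumour library and still lay far below AG, and the means were 43.9 ± 19.7 in OB, 51.5 ± 75.9 in BS and 13030 ± 592 in AG (SD, n = 3 each). The log2 difference was -8.27 ± 0.97 in OB against AG and -9.21 ± 0.97 in BS against AG (SE).

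S100a11, the partner of Anxa1, had 0.00, 1.90 and 35.86 normalized reads in the OB libraries and 10.90, 14.94 and 22.66 in the BS libraries. In AG it had 5786.5, 5849.2 and 5622.2. Its BS libraries were close together and its OB libraries were not, with an SD on the log2 scale of 2.67 in OB, 0.497 in BS and 0.03 in AG. The fitted log2 difference was -10.24 ± 1.11 in OB against AG and -8.45 ± 1.11 in BS against AG (SE).

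Anxa1 (lipocortin, a ligand of formyl peptide receptors) had 3.32, 19.03 and 15.22 normalized reads in the OB libraries, 0.84, 11.73 and 12.81 in the BS libraries, and 19747.5, 19001.4 and 21018.9 in AG. OB_257 and BS_287 were the lowest library of their group. Its mean was 1591-fold lower in OB and 2355-fold lower in BS than in AG. The log2 difference was -10.80 ± 0.84 in OB and -11.50 ± 0.84 in BS (SE). Anxa1 and S100a11, which form a complex, were thus low in the same 6 libraries.

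Anxa3, an annexin known from neutrophils, had 1.11, 32.36 and 7.61 normalized reads in the OB libraries, 0.00, 30.94 and 13.79 in the BS libraries, and 17577.2, 17055.0 and 17637.7 in AG. The mean was 13.7 ± 16.5 in OB, 14.9 ± 15.5 in BS and 17420 ± 320 in AG (SD, n = 3 each). The 2 tumour groups had nearly the same mean and overlapped throughout, with log2 differences from AG of -11.01 ± 1.33 in OB and -11.13 ± 1.33 in BS (SE).

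Anxa2 (a membrane organiser and co-receptor for plasminogen activation) was the member with the least spread. It had 374.7, 258.8 and 511.9 normalized reads in the OB libraries, 152.6, 209.1 and 650.3 in the BS libraries, and 40815.8, 38998.3 and 40347.8 in AG. Its SD over the 6 tumour libraries was 0.793 on the log2 scale, the lowest of the 10 genes, and all 6 lay far below AG. Its mean was 105-fold lower in OB and 119-fold lower in BS, and the log2 difference was -6.76 ± 0.49 in OB and -7.18 ± 0.49 in BS (SE).

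Anxa5 (the phosphatidylserine binder used to stain dying cells) had 730.6, 2031.8 and 802.1 normalized reads in the OB libraries, 345.5, 80.01 and 187.2 in the BS libraries, and 27605.2, 26157.5 and 26027.0 in AG. It was the annexin with the highest level in OB, and each OB library lay above each BS library. Its mean was 22.4-fold lower in OB and 130-fold lower in BS than in AG, and the log2 differences were -4.65 ± 0.54 in OB and -7.25 ± 0.54 in BS (SE).

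S100b, the astrocyte and glial marker whose secreted form signals through the receptor Ager, went the other way. It had 6615.9, 179.9 and 5554.6 normalized reads in OB_257, OB_287 and OB_295 and 5.87, 87.48 and 639.4 in BS_287, BS_295 and BS_296. In AG it had 25.01, 25.62 and 27.22. All OB libraries lay above AG, by 159-fold in the means, while the BS libraries lay on both sides of AG. The mean was 4117 ± 3450 in OB, 244.3 ± 345 in BS and 25.9 ± 1.14 in AG (SD, n = 3 each), and the log2 difference was 6.13 ± 1.76 in OB against AG and 1.44 ± 1.76 in BS against AG (SE). OB_287 lay nearer to BS_295 than to the other OB libraries.

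S100a1, which in muscle regulates calcium release and is also found in glia, did not separate the groups. It had 1320.8, 47.58 and 695.5 normalized reads in the OB libraries, 74.64, 80.01 and 266.0 in the BS libraries, and 257.6, 207.0 and 236.3 in AG. As with S100b, OB_257 and OB_295 were the highest and OB_287 was low. The log2 difference was 0.60 ± 1.10 in OB and -0.99 ± 1.10 in BS against AG (SE). The S100a1 gene overlaps S100a13 by 98 bases in GRCm38, and the strand setting of the counting is not given in the sources used here, so that reads in that stretch cannot be told apart.

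S100a10 (p11, which lacks a working calcium site and is held by Anxa2) was the most variable of the 10 over the tumour libraries. It had 0.00, 212.2 and 839.0 normalized reads in the OB libraries, 11.74, 1877.6 and 2020.7 in the BS libraries, and 5734.8, 5140.6 and 5757.3 in AG. OB_257 had 0 reads, where 3 reads would be 3.32 normalized reads, BS_287 was close to it, and BS_295 and BS_296 came nearest to AG. The gene had an SD on the log2 scale of 4.44 over the tumour libraries against 0.093 in AG. Its mean was 15.8-fold lower in OB and 4.25-fold lower in BS, and the log2 difference was -6.62 ± 2.63 in OB and -3.93 ± 2.63 in BS (SE). Without OB_257 and BS_287, a setting chosen after seeing the data, it was -3.71 in OB and -1.51 in BS, and S100a10 was then called lower in both.

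S100a10 and Anxa2 form a tetramer, so their levels were set side by side per kilobase of transcript. The ratio of S100a10 to Anxa2 per kilobase was 0 in OB_257, 1.73 in OB_287 and 3.46 in OB_295. It was 0.162 in BS_287, 19 in BS_295 and 6.56 in BS_296, against 0.297, 0.278 and 0.301 in AG. The ratio was thus steady in AG, above it in 4 tumour libraries and below it in OB_257 and BS_287. In BS_295, S100a10 stood at 2741.0 and Anxa2 at 144.5 normalized reads per kilobase, and in AG_1 at 8372.0 and 28207.2.

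**Figure D2:**
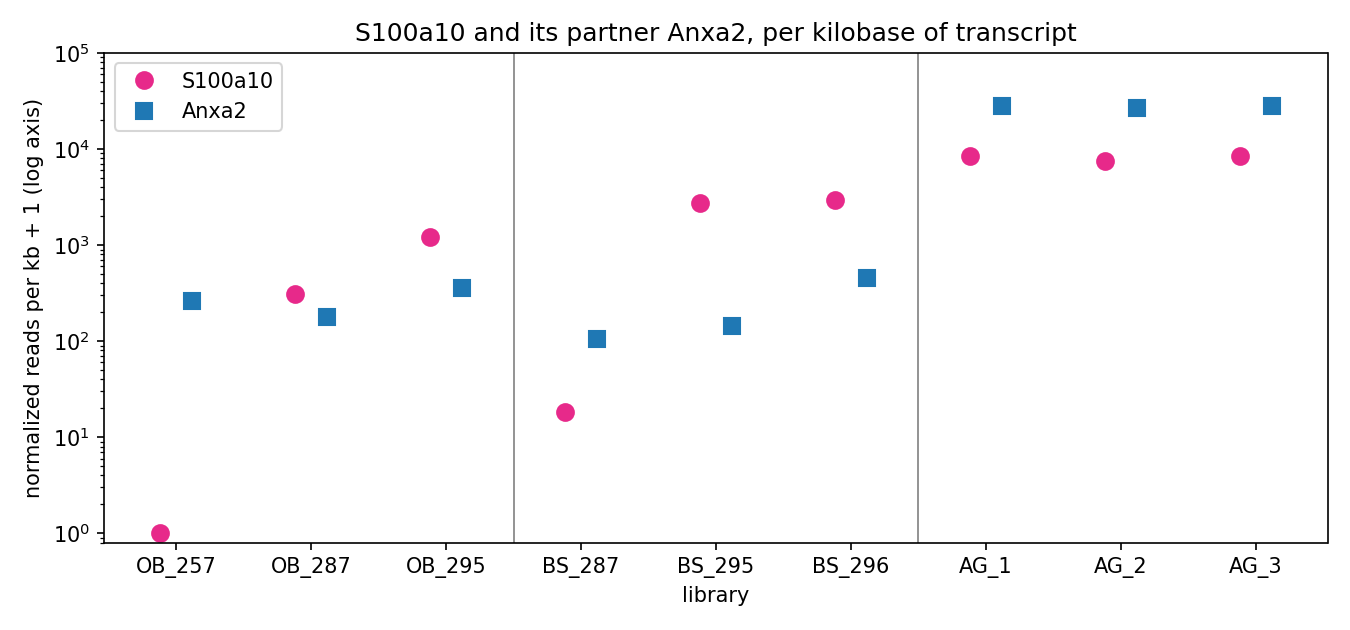
Normalized reads per kilobase + 1 of S100a10 (pink circles) and of its partner Anxa2 (blue squares) on a log axis, for each library from OB at the left to AG at the right. S100a10 lies below Anxa2 by the same distance in the 3 AG libraries, with a ratio of 0.278 to 0.301, while in the 6 tumour libraries S100a10 runs from 0 to 2949.9 and Anxa2 from 105.5 to 449.4 normalized reads per kilobase.

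Levels of different genes were compared per kilobase, using GENCODE transcript lengths. In AG the order of the mean level was S100a6 (88249.2 normalized reads per kilobase), Anxa2 (27680.7), S100a4 (26160.8), Anxa5 (15364.9), Anxa1 (11901.2), S100a11 (11257.7), Anxa3 (10923.7), S100a10 (8093.8), S100a1 (345.1) and S100b (17.49). Neighbours overlapped in range only for Anxa1 with S100a11 and for S100a11 with Anxa3. S100a6 ranked 3 of 9567 genes in each AG library.

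In OB the order of the mean per kilobase began with S100b (2774.1), S100a1 (1016.2), Anxa5 (686.4), S100a10 (511.5) and Anxa2 (263.9), and each of these overlapped the next. S100a4 (88.14), S100a6 (38.31), S100a11 (24.64), Anxa3 (8.58) and Anxa1 (7.48) followed, and the ranges of Anxa2 and S100a4 did not overlap. The minima of S100b (121.2), S100a1 (70.28) and S100a10 (0.00) still reached into or below the S100a4 range of 59.24 to 133.2. S100b ranked 117 in OB_257, 4358 in OB_287 and 180 in OB_295, and between 5900 and 5973 in AG. In BS, S100a10 came first (1902.7) and Anxa1 last (5.05), and each neighbour in the BS order overlapped the next. The gene at the bottom of the order in AG was therefore at the top in OB by its mean.

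In the comparison of OB with AG, 7 members were called lower and 1, S100b, higher, where a call is a limma adjusted p under 0.05 over all genes tested. Of the 10576 genes tested, 19% were called lower and 16% higher. The same 7 were called lower in BS, where 19.5% of genes were called lower and 15.6% higher, and 0 members were called higher. Every OB library lay below every AG library for 8 members and for 30.8% of genes, and every BS library did so for 8 members and for 31.8% of genes. The median log2 difference of the members was -7.51 in OB and -7.85 in BS, against -0.01 and -0.03 over all genes tested. These counts restate the levels on which the genes were chosen, and both comparisons share the AG libraries. All 10 members also passed the filter on low values in the tumour libraries alone, so that none entered only through AG. In these bulk samples fewer cells of a type and less RNA per cell cannot be told apart. The higher call of S100b in OB was lost without any 1 AG library and also without OB_257 or OB_295. In OB a lower call of S100a10 was gained with group weights and also without BS_287 or OB_295, and a higher call of S100a1 without OB_287. Without both OB_257 and BS_287 the calls were 8 lower and 1 higher in OB and 8 lower and 0 higher in BS, with S100a10 added.

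**Figure D3:**
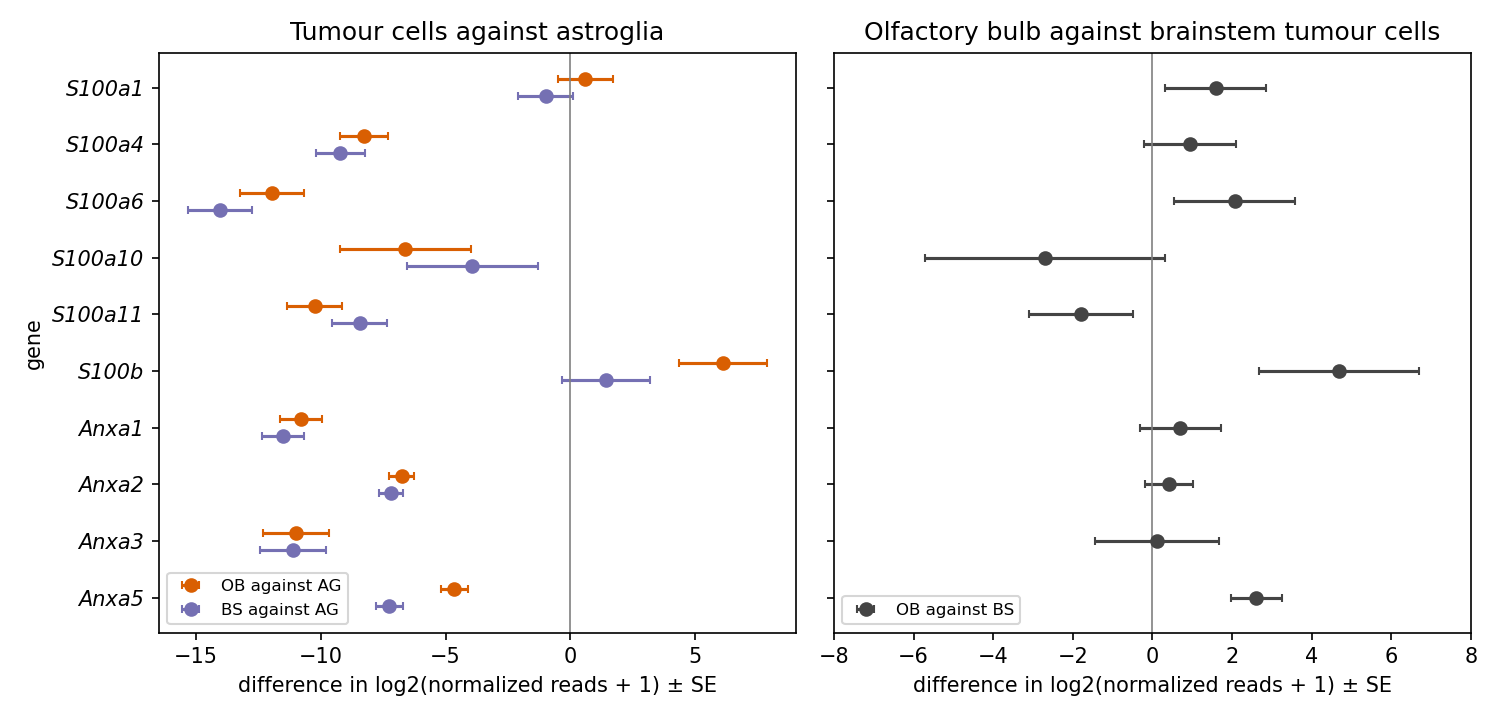
Log2 differences of the 10 genes between groups on the log2(value + 1) scale, as points with standard errors (left, OB in orange and BS in purple against AG; right, OB against BS). In OB and BS against AG the 7 genes that were low in both tumour groups lie far below 0, from -4.65 to -14.03, while OB against BS lies within 5 log2 units of 0 throughout.

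Marker levels of other cell types also differed between the tumour libraries and AG. The summed level of 5 pericyte and smooth muscle markers was 117.2 to 168.5 normalized reads in OB, 45.29 to 100.5 in BS and 58709.3 to 62347.6 in AG, almost all of it Acta2 and Tagln, while Des was at 0 in AG. That of 7 fibroblast and mesenchymal markers was 9.95 to 122.8 in OB, 18.72 to 46.13 in BS and 36856.6 to 47532.8 in AG. Almost all of the AG sum was Col1a1, at 35279.8 to 46039.5. In AG, Fn1 was 1118.9 to 1246.7 and Col1a2 226.8 to 273.0. Dcn and Postn were at 0 in OB and BS but also low in AG, at 10.89 to 21.68 and 2.50 to 6.90. Lum was 0.83 to 2.96 in AG. The endothelial sum of 5 markers was 11.05 to 234.1 in OB, 29.56 to 244.1 in BS and 923.0 to 1034.8 in AG, where Flt1 alone made up 910.5 to 1026.9 and Cdh5 and Cldn5 were at 0. Kdr, another endothelial marker, went the other way, at 6.63 to 198.9 in OB, 12.81 to 241.5 in BS and 7.88 to 10.84 in AG. That of 2 ependymal markers was 77.37 to 228.2 in OB, 67.09 to 209.9 in BS and 2071.2 to 2551.4 in AG. The summed level of 7 oligodendrocyte precursor markers ran the other way, at 45533.4 to 84237.5 in OB and 47920.9 to 94373.5 in BS. It was 17.42 to 22.51 in AG, with Olig2 at 0 there. Not every one of these markers did so in every library. Pdgfra was 1.11 in OB_257 and 2.52 in BS_287, against 3.94 to 8.71 in AG. Gpr17 was 0.00 in BS_287 and 0.00 to 1.97 in AG. The summed level of 6 neuron markers was also higher in the tumour libraries, at 2756.0 to 4983.0 in OB and 1215.1 to 5588.9 in BS. It was 700.2 to 802.9 in AG. Single neuron markers did not all follow the sum. Tubb3 was 613.4 in BS_295 and 415.8 in BS_296, against 647.9 to 765.4 in AG. Stmn2 was 0.00 to 3.81 in OB, against 3.94 to 5.44 in AG. The part of these cell types in the results was not tested.

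OB and BS were then compared directly, a contrast whose results were known when the genes were listed. The intervals and p-values of the members in it are therefore a description and support no difference. Among 9767 genes tested, 0% were called by limma, 448 reached an unadjusted p under 0.05, and edgeR called 0 and DESeq2 111. None of the 10 members was called by limma. Anxa5 had the lowest unadjusted p of the members, with a difference of 2.61 ± 0.64 on the log2 scale (SE, 95% interval 1.06 to 4.15, adjusted p 0.807, unadjusted p 0.00565), with OB at 730.6, 2031.8 and 802.1 and BS at 345.5, 80.01 and 187.2 normalized reads. It was higher in 3 of 3 OB libraries than in any BS library. DESeq2 on the recovered reads gave it an adjusted p of 0.0255, and over all alternatives the adjusted p ran from 0.0255 to 1.0.

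S100b was higher in OB by 4.69 ± 2.0 on the log2 scale (SE, 95% interval -0.12 to 9.49, adjusted p 0.957), and its libraries overlapped. S100a10 differed by -2.69 ± 3.01 (SE, 95% interval -9.91 to 4.53, adjusted p 0.957) and changed sign without OB_257, to 0.22. S100a1 differed by 1.59 ± 1.26 (SE, 95% interval -1.44 to 4.62, adjusted p 0.957). The other 6 members had log2 differences from -1.80 in S100a11 to 2.07 in S100a6, with adjusted p from 0.957 to 0.997. Without OB_257 and BS_287 the difference between OB and BS was 3.37 for Anxa5 (limma adjusted p 0.562), -2.20 for S100a10 (adjusted p 0.71) and 2.07 for S100b, and 0 members were called. The OB and BS ranges overlapped for 9 of 10 members, and the groups did not overlap for Anxa5 and for 10.1% of the genes tested. The median log2 difference of the members was 0.83 against 0.01 over all genes tested.

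The S100 genes of chromosome 3 lie in a first group of 13, which holds S100a1, S100a4 and S100a6, and a second of 2, S100a11 and S100a10. RefSeq has 56 protein-coding genes between S100a9 of the first group and S100a11, and S100a7l2 of the first group is among them. Ilf2, an RNA-binding protein next to the first group, had 5551.6, 8885.6 and 6064.3 normalized reads in OB, 5329.8, 5143.0 and 5633.6 in BS and 3725.4, 3766.8 and 3840.7 in AG. Snapin, a SNARE-binding protein on the same side, had 1783.8, 1531.2 and 1731.3 in OB, 1135.6, 1138.3 and 1440.4 in BS and 1712.6, 1651.8 and 1727.1 in AG. Ilf2 was thus higher in every tumour library than in AG, while Snapin overlapped AG in OB and lay somewhat below it in BS, a far smaller gap than that of S100a4 or S100a6. Within the first group S100a1 and S100a4 also differed, S100a1 overlapping AG and S100a4 lying far below it. Anxa5 lies on chromosome 3 outside the cluster, S100b on chromosome 10, Anxa1 on 19, Anxa2 on 9 and Anxa3 on 5.

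**Figure D4:**
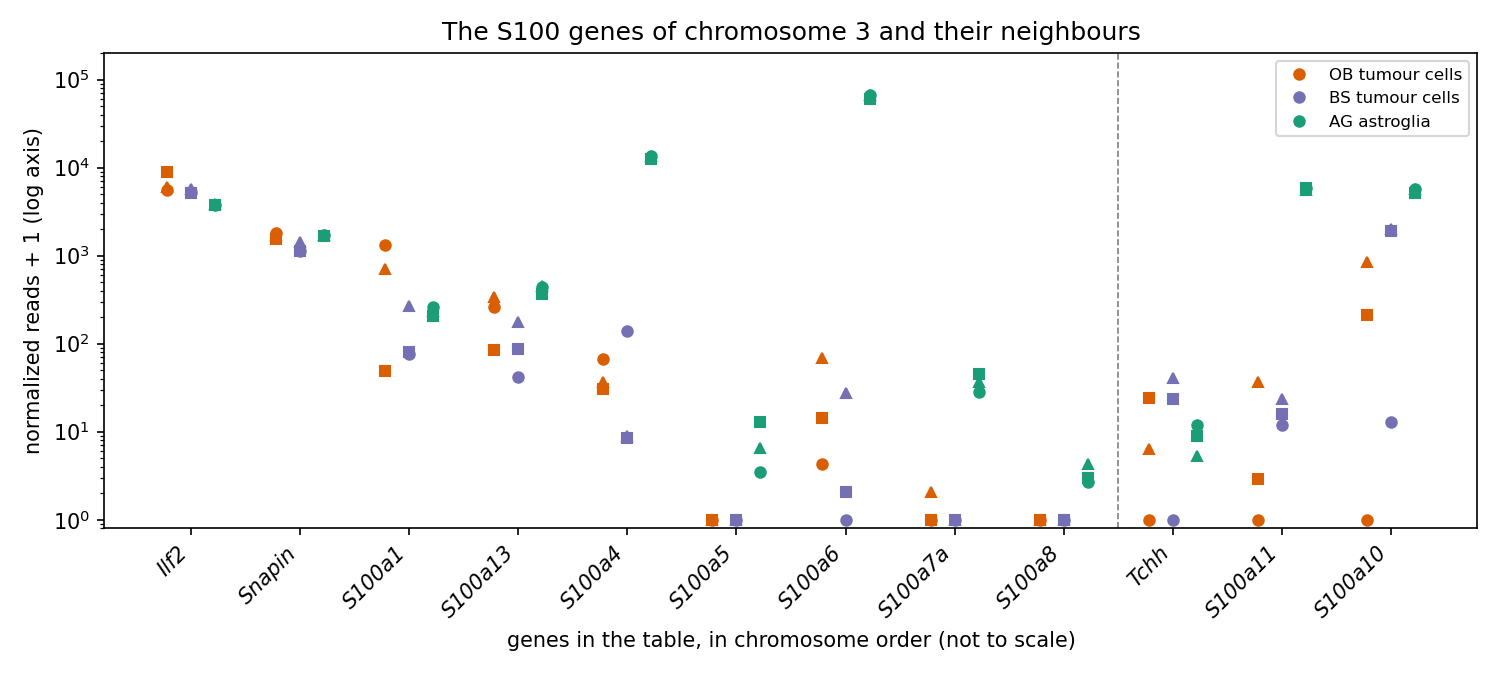
Levels of the S100 genes of chromosome 3 and the genes beside them, in gene order without distances, as normalized reads + 1 on a log axis with 1 point per library (OB orange, BS purple, AG green; the dashed line parts the groups of genes). S100a4, S100a6, S100a11 and S100a10 lie lower in the tumour libraries than in AG, while Ilf2 lies between 3725.4 and 8885.6 and Snapin between 1135.6 and 1783.8 normalized reads in all 9.

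Of the other genes of the families 4 were tested against AG, and 0 were called higher in OB or BS. Of the 2 S100 genes tested, 1 was called lower in OB and 2 in BS, and of the 2 annexins 1 in each. Over all genes tested 16% were called higher and 19% lower in OB, and 15.6% and 19.5% in BS. Calls on so few genes cannot be set against these shares. S100a13, a partner in the release of FGF1, had 261.9, 83.75 and 338.0 normalized reads in OB, 41.09, 85.34 and 176.4 in BS and 440.2, 363.7 and 445.4 in AG, with a log2 difference of -1.08 in OB (adjusted p 0.21) and -2.27 in BS (adjusted p 0.0227). The BS call was lost without any 1 AG library and without BS_287 or BS_295. S100a7a had 27.52, 44.35 and 35.94 in AG and 0 to 1.09 in OB and BS. It passed the filter only through AG, so that its lower call was set by the filter. S100a5 had 0 in every OB and BS library and 2.50, 11.83 and 5.44 in AG, and S100a8 had 1.67, 1.97 and 3.27 in AG and 0 elsewhere.

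Anxa11, an annexin of RNA granule transport, had a log2 difference from AG of -1.67 in OB (adjusted p 0.0116) and -3.66 in BS (adjusted p 0.000212). It had 364.7, 158.0 and 349.9 normalized reads in OB, 78.84, 44.81 and 88.67 in BS and 1017.2, 852.5 and 753.6 in AG. Like Anxa5 it separated the tumour groups without overlap, by 1.99 ± 0.49 in OB against BS (SE, limma adjusted p 0.807), and DESeq2 gave an adjusted p of 0.0157. Its OB call against AG was lost without AG_1, with an adjusted p of 0.0525. Anxa9 had 12.16, 6.66 and 5.43 in OB, 8.39, 2.13 and 4.93 in BS and 10.01, 14.78 and 14.16 in AG, and was not called in either, though it was called lower in BS without BS_287 (adjusted p 0.0343), and it passed the filter only through AG. Anxa7 and Anxa8 held at most 4 reads in any library, and both have several RefSeq transcripts, so that their levels are uncertain.

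Of 30 listed partners and receptors of S100 and annexin proteins, 24 were tested: 1 rose and 10 fell in OB, and 2 rose and 12 fell in BS, with median log2 differences of -0.65 and -1.66. Over all genes tested 16% were called higher and 19% lower in OB, and 15.6% and 19.5% in BS. Of the genes that fell, 4 in OB (Dysf, Htr1b, Pla2g4a and Cd44) and 5 in BS (these and Ppfibp1) passed the filter only through AG, and of those that rose, Kcnk3 in BS only through the tumour libraries, so that the filter set these calls. That leaves 1 higher and 6 lower in OB and 1 higher and 7 lower in BS. Ahnak, the giant scaffold that holds the S100a10 and Anxa2 tetramer, fell furthest. It had 54.16, 93.26 and 90.20 normalized reads in OB, 416.8, 14.94 and 30.54 in BS and 66664.2, 73215.6 and 74189.0 in AG, a log2 difference of -9.84 ± 1.01 in OB (adjusted p 0.000168) and -10.23 ± 1.01 in BS (adjusted p 0.000137). Tlr4, a receptor for some S100 proteins, fell by 7.54 on the log2 scale in OB (adjusted p 0.000181) and by 7.35 in BS (adjusted p 0.000206). Cacybp, the S100a6-binding ubiquitin ligase adaptor, was not called, with means of 5047, 4806 and 5550 in OB, BS and AG. The channel Kcnk3, which S100a10 helps to reach the membrane, was called higher in BS by 5.73 (adjusted p 0.026) and not in OB (4.61, adjusted p 0.0578). In OB Kcnk3 was called in 8 other settings, among them DESeq2 (adjusted p 8.72e-05), edgeR (0.0201), quantile normalization (0.038) and a fit without OB_257 (0.00358). With AG at 0.00 to 0.83 normalized reads, Kcnk3 passed the filter only through the tumour libraries. The filter therefore set these OB calls as well, and they support nothing. The BS call was lost without any 1 AG library and without BS_295 or BS_296. The count fell to 7 in OB (1 higher, 6 lower) and 9 in BS (1 higher, 8 lower) without each AG library in turn.

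Of 50 listed EF-hand proteins outside the S100 family, 24 were tested: 3 rose and 5 fell in OB, and 4 rose and 5 fell in BS. Every riser (Rcvrn, Efhd1 and Necab2, with Calb2 in BS) passed the filter only through the tumour libraries and 1 faller, Vsnl1, only through AG, so that the filter set these calls and 4 lower calls are left in each comparison, beside 19% and 19.5% of all genes called lower. Necab2, a neuronal EF-hand protein, rose by 7.87 in OB (adjusted p 9.64e-06) and by 8.65 in BS (adjusted p 5.77e-06). Vsnl1, a neuronal calcium sensor, fell by 4.40 in OB (adjusted p 0.000577) and fell by 5.07 in BS (adjusted p 0.00026), and Calu, a calcium buffer of the secretory pathway, fell by 2.05 in OB (adjusted p 0.00581) and fell by 2.27 in BS (adjusted p 0.00366). The median log2 difference of the list was -0.60 in OB and -0.14 in BS. With a minimum of 50 reads 5 were called in each comparison (1 higher, 4 lower), and without OB_257 and BS_287 13 in OB (4 higher, 9 lower).

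Of 45 listed C2-domain membrane binders, not all of which depend on calcium, 23 were tested: 8 rose and 6 fell in OB, and 6 rose and 8 fell in BS. Among all genes tested, 16% were called higher and 19% lower in OB, and 15.6% and 19.5% in BS. Of these Syt4, Syt7 and Syt9 in OB and Syt7 in BS had no AG library at the filter's minimum and passed only through the tumour libraries. Dysf and Pla2g4a passed in both only through AG. That leaves 5 higher and 4 lower in OB and 5 higher and 6 lower in BS. The 5 higher include Cpne7 in both, whose AG mean of 8.98 lies under the minimum of 10. Cpne7 thus also needed the tumour libraries to pass, so that the filter had a part in its higher calls. Prkcb, a calcium-dependent kinase, rose by 7.61 in OB (adjusted p 2.25e-05) and 8.17 in BS (adjusted p 1.4e-05). Syt12, a synaptotagmin, fell by 4.59 in OB (adjusted p 0.000218) and fell by 4.07 in BS (adjusted p 0.000412). Dysf, which works in membrane repair with annexins, fell by 4.39 in OB (adjusted p 0.0219) and fell by 4.30 in BS (adjusted p 0.0239). Both calls of Dysf were lost without any 1 AG library, the OB call also without OB_257 or OB_295, and the BS call also without BS_295 or BS_296 and in edgeR and DESeq2. Without each AG library in turn 9 genes of the list were called in BS. In OB against BS limma called 0 genes of these lists and 0 of all 9767 genes tested. An unadjusted limma p under 0.05 was found for 4 of the 21 C2-domain genes tested and for 448 of the 9767. DESeq2 called 2 of the 21 (1 higher, 1 lower) and 111 of the 9767. Counts this small are given as a description.

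Genes whose levels ran most like S100a6 over the 9 libraries were Ddo, Foxj1, Ifnlr1, Ptgs2os and Pitpna (Pearson r of log2(value + 1) from 0.99 to 0.994), and those most like Anxa2 were Plin4, Mgp, Sh2d4a, Ppl and Cbr2 (0.995 to 0.996). Over all 9 libraries these genes share with S100a6 and Anxa2 a gap between tumour and AG libraries. For S100b they were Ccdc115, Fa2h, Srpk3, Polr2g and Erbb3 (0.969 to 0.99). Over the 6 tumour libraries alone S100b ran with Efna2, Ccdc115, Luzp2, Fa2h and Srpk3 (0.983 to 0.992). Fa2h, the enzyme that makes hydroxylated myelin lipids, had 1139.5, 42.82 and 878.1 normalized reads in OB, 0.84, 5.33 and 111.3 in BS and 0.83, 0.99 and 1.09 in AG, and Erbb3, a neuregulin receptor, 2546.5, 70.42 and 1365.0 in OB, 2.52, 11.73 and 87.69 in BS and 15.01, 18.73 and 17.42 in AG. As in S100b, OB_287 was low and OB_257 and OB_295 were high in both. Over the same 6 libraries S100a6 ran with Vipas39, Gm11696, Wdr25, Rbm22 and Sem1 (0.982 to 0.997) and Anxa2 with Nppa, Dctn6, Gm5617, Kptn and Abcc5 (0.972 to 0.988), over values that share their libraries and depths.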

How the data were processed

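RNA of 9 libraries was sequenced on a HiSeq3000 from a stranded TruSeq kit, per the labels. Per the submitters' processing notes the tools included HISAT2 2.1.0, featureCounts (Subread 1.6.2), bcl2fastq 1.8.4 and DESeq2 1.20.0, with the build mm9. No source used here gives the annotation, strand setting or handling of shared reads. The deposited signal values are the authors' reads over 1 size factor per library (0.905 to 1.2), and 100.0% of values came out as whole reads within 0.05 reads when multiplied back. Rows of 1 symbol were added, and 17 unnamed rows (0.461% of reads) were left out.

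Values were tested as log2(value + 1) with limma 3.58.1 (R 4.3.3), two-sided, with a variance trend and Benjamini-Hochberg adjustment over all genes that reached 10 normalized reads in 3 libraries. All 9 libraries were fitted for the comparisons with AG, and the 6 tumour libraries for OB against BS. Calls were made at an adjusted p under 0.05. Alternatives were pseudocounts of 0.5 and 5, no filter or a minimum of 50, upper-quartile and quantile scaling, other libraries in the fit, group weights, the highest row per gene, whole-read tests in edgeR 4.0.16 and in DESeq2 1.42.0, a block for the title number, and leaving out libraries. The members and lists were chosen with earlier results of these data known. Other named genes are, per list, the largest rise and the 2 largest falls in the mean of the OB and BS differences from AG, family genes with 10 or more reads in any library, the 5 genes most like S100a6, Anxa2 and S100b, and the genes of the S100 cluster. Cacybp was named, and the levels of Fa2h and Erbb3 were given, after their values were seen. The exact intervals of the read shares cover counting error only, and they treat amplified reads as separate molecules, which they are not. The intervals of log2 differences come from limma and measure the spread between libraries. The method was tested on simulated data. Figures were drawn with matplotlib 3.10.9.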

Additional observations from a re-analysis of the deposited data

How the results depend on the processing

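Against AG, 206 of 210 member values in OB and 205 of 210 in BS moved by less than the spread between libraries over 21 settings, and none changed sign past a call. In several of these settings the value could not move. They were the other filters, the other libraries in the fit, group weights and the highest row per gene. Leaving out a library of the tumour group not compared could not move it either. These counts are thus partly fixed in advance. The members' calls against AG restate the choice of genes, so that their number over settings supports nothing. DESeq2 gave S100a4 and S100a10 no adjusted p. S100a1 in OB was called higher without OB_287 and was -0.35, not called, without OB_257. S100b in BS was called higher by DESeq2 and was -0.13, not called, without BS_296. Over all genes, 3712 were called in BS against AG, and leaving out 1 library gave 2427 (without AG_2) to 4353 (without OB_257). Upper-quartile scaling moved the median of all genes to 0.18 and the calls to 2158 higher and 1675 lower in OB (1687 and 2008 in the main scaling) and to 2135 and 1674 in BS (1652 and 2060). In OB against BS, DESeq2 called 111 genes and 1 member and the fit with a replicate block 1 gene. Deviations correlated at 0.064 between OB_287 and BS_287 and at 0.318 between OB_295 and BS_295, whose shared title numbers are not explained, so no pairing was taken. Differences between OB and BS changed sign: S100a4 gave -0.27 in edgeR, -0.24 in DESeq2 and -0.039 with the replicate block, S100a10 1.45 with the block and -5.11 to 0.22 with 1 library left out, and Anxa3 -0.077 at a pseudocount of 5, -0.12 in edgeR and -0.11 in DESeq2. With 1 library left out Anxa1 ran from -0.24 to 1.39, Anxa2 from -0.0052 to 1.04 and Anxa3 from -1.36 to 1.14, with -0.87 without OB_287. Leaving out both OB_257 and BS_287, a setting chosen after seeing the data, gave Anxa2 -0.019 and Anxa3 -0.36. The cause was not tested. Values under about 10 reads rest on few reads.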
